A study of Homo sapiens with 12 samples.

Results

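Epithelial-mesenchymal state genes were followed by symbol in the deposited count table: CDH1 and EPCAM as epithelial genes, CDH2, VIM and FN1 as mesenchymal genes, and ZEB1, ZEB2, SNAI1, SNAI2 and TWIST1 as transcription factors. All 10 were found among the 60603 genes of the table. The data are RNA-seq libraries of T24, an established human bladder carcinoma line, grown in DMEM with serum. The libraries form 4 groups of 3 by genotype and treatment: WT cells with no treatment, WT cells with 5-Ad-IAA, NS1 cells with no treatment and NS1 cells with 5-Ad-IAA. AlissAID, the system of the series, removes an untagged endogenous protein by linking it through a binding protein to a ubiquitin ligase that responds to auxin, and 5-Ad-IAA is the auxin-like inducer. The labels do not spell out NS1, say whether the NS1 line is a single clone, or give a dose or a time for 5-Ad-IAA. Nothing in the labels says that libraries of a group came from separate cultures, so the p-values below measure the spread between these libraries, which may be technical. In these bulk libraries, fewer cells with a transcript and less of it per cell cannot be told apart.

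Epithelial cells are held together by E-cadherin, the product of CDH1, and carry EPCAM on their surface. In an epithelial-mesenchymal transition, cells lower such genes and raise N-cadherin (CDH2), the intermediate filament protein vimentin (VIM) and the matrix protein fibronectin (FN1). Zinc finger factors of the SNAI and ZEB families and the helix-loop-helix factor TWIST1 are the classical drivers: SNAI and ZEB proteins bind E-box motifs and repress CDH1, and TGF-beta signalling induces several of them. ZEB1 and ZEB2 are in turn targets of the miR-200 family, whose genes the ZEB proteins repress.

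The mature miR-200 family is shown here because its members fall into 2 seed groups that both have target sites in ZEB1 and ZEB2 transcripts. Sequences are from RefSeq on GRCh38.p14, 5′ to 3′, with the seed (bases 2 to 8) in capitals.
hsa-miR-141-3p: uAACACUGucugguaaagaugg
hsa-miR-200a-3p: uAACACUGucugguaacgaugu
hsa-miR-200b-3p: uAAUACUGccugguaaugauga
hsa-miR-200c-3p: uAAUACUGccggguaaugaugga
hsa-miR-429: uAAUACUGucugguaaaaccgu
The first pair shares the seed AACACUG and the other 3 share AAUACUG. The genes of these 5 miRNAs and the host transcript MIR200CHG are in the count table, and each held 0 counts in all 12 libraries. They were named after their values were seen. Poly(A) libraries of this kind do not measure mature miRNAs, so these zeros concern longer transcripts only.

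E-boxes were looked for in RefSeq promoter windows of 250 bases before a gene start, which were given for 5 of the 10 genes (CDH2, VIM, FN1, ZEB1 and ZEB2). Windows of VIM and ZEB1 are printed because both genes lie on the short arm of chromosome 10 and VIM passed the test between the lines while ZEB1 did not. The capitals mark matches to CANNTG on either strand.
VIM, chr10:17227991-17228240, plus strand: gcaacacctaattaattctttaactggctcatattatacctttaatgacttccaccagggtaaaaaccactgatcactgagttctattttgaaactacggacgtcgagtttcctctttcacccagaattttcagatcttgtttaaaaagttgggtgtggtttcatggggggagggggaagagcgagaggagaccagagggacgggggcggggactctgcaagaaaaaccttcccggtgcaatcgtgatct
ZEB1, chr10:31318167-31318416, plus strand: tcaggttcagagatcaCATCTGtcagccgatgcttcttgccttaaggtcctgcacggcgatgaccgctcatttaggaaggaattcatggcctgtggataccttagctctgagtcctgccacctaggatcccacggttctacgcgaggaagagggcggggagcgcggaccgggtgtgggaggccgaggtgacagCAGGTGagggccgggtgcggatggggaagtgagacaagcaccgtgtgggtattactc
The printed ZEB1 window, 1 of 7 that RefSeq starts gave for this gene, held 2 matches to CANNTG, one of which, CAGGTG, is the form bound by SNAI and ZEB proteins (CACCTG or its reverse complement CAGGTG, a subset of CANNTG). The VIM window held no match to either. Of the 12 windows searched, CACCTG or CAGGTG was in 2, both of ZEB1, and CANNTG in 6: 4 of 7 for ZEB1, 1 of 2 for CDH2, 1 of 1 for ZEB2 and 0 of 1 for FN1 and for VIM. Later starts of a gene put such a window inside it. Over 27305 promoter windows of that length, 1 per gene at its first listed start, 17.5% held CACCTG or CAGGTG and 62.2% held CANNTG. The 12 windows above took every listed start, so the 2 sets are not alike. A match in these letters is not a measured binding site.

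Library totals ran from 10593934 to 20266996 counts, and 3 counts, the limit that a count of 0 allows, corresponded to 0.141 to 0.29 normalised CPM (counts relative to the scaled library total), for counting error only. Replicate 1 was the deepest library of its group in all 4 groups. Within each group, chi-square values between libraries were larger for pairs with replicate 1 than for the pair of replicates 2 and 3. Over the groups they were 17.6 to 30.6 and 3.03 to 18.2 per degree of freedom, ranges that overlap. These values were not adjusted for depth. Urothelial identity markers were partly absent: UPK3A, KRT5 and TP63 held 0 counts in every library and UPK1B and KRT20 at most 2. Others were detected, and GATA3, PPARG, FOXA1 and UPK2 passed the filter on low counts. The 11 listed markers summed to 85.7 to 167 normalised CPM in WT libraries. In NS1 libraries the sums were 134 to 152 untreated and 205 to 272 treated. Over all libraries, listed markers summed to 8.33 to 26.6 normalised CPM for leukocytes, 0.247 to 4.07 for endothelium and 2.53 to 21.8 for fibroblasts. PTPRC, CD3E, CLDN5, TEK, DCN, LUM, COL1A2 and PDGFRA held at most 3 counts in any library. CD14, CD68, PECAM1, COL1A1 and PDGFRB passed the filter.

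Levels below are in normalised CPM, counts divided by a library total scaled with edgeR's TMM method, as mean ± SD of 3 libraries. Changes are log2 fold changes from edgeR's quasi-likelihood test over all 12 libraries with their standard error (SE), and a gene was called when its Benjamini-Hochberg adjusted p over the 17775 genes tested was under 0.05. Of the 10 genes, 8 passed the filter on low counts and were tested, while CDH1 and TWIST1 did not pass. The 5 comparisons share libraries with each other, so their results for a gene are not independent.

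**Figure D1:**
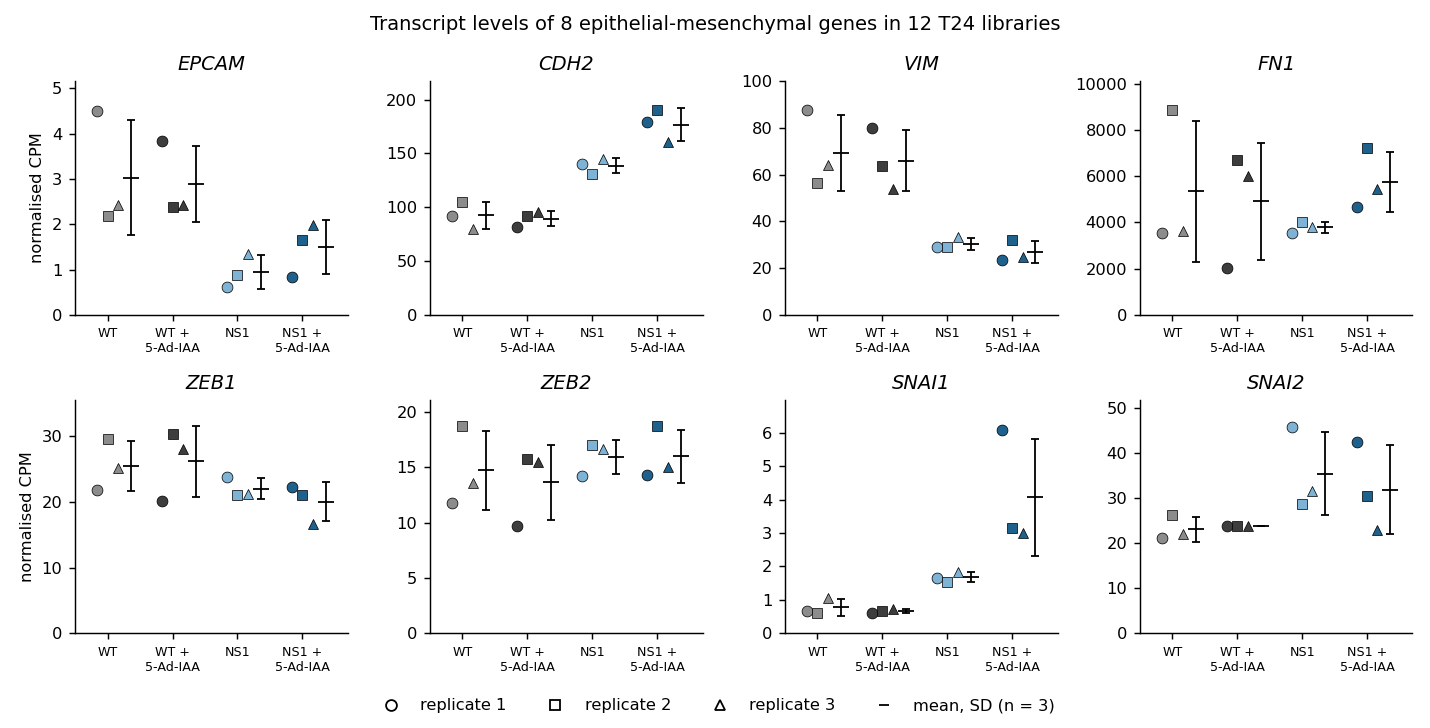
Normalised CPM (linear axis from 0) of the 8 tested genes in each of the 12 libraries, by group; symbols are replicates 1 to 3 and the bar gives the mean and SD of 3. EPCAM and VIM lay lower in both NS1 groups than in the WT groups, CDH2 and SNAI1 lay higher, and the WT pair of groups overlapped for every gene.

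Of the 10 genes as counted, the mesenchymal genes FN1 and CDH2 had the highest levels for their length in all 4 groups. So few genes do not name a cell state, and epithelial genes outside them, such as DSP (below), were also detected. Divided by the length of the gene's merged exons (GENCODE 29), the mean level over the 12 libraries was 286 CPM per kb for FN1, 25.1 for CDH2, 9.34 for VIM, 8.42 for SNAI2, 2.71 for ZEB1, 1.07 for SNAI1, 0.829 for EPCAM, 0.602 for ZEB2, 0.0056 for CDH1 and 0 for TWIST1. FN1 stood 10th of all 60603 genes by mean CPM. The order at the top held in each group, but VIM and SNAI2 changed places: in untreated cells VIM was at 13.5 ± 3.15 CPM per kb in WT and 5.9 ± 0.481 in NS1, and SNAI2 at 6.81 ± 0.815 and 10.4 ± 2.7. SNAI1 was among the lowest detected genes in untreated WT cells (0.459 ± 0.15 CPM per kb, beside 0.588 ± 0.144 for ZEB2) and reached 2.41 ± 1.03 in treated NS1 cells, which did not differ beyond the spread from 2.31 ± 0.34 for ZEB1. EPCAM and ZEB2 also did not differ beyond their spread in treated NS1 cells (0.593 ± 0.237 and 0.64 ± 0.0957). ZEB2's merged exons span 25058 bases, and its place in the order rests on that length. The place of CDH2 above VIM in WT cells rests on how reads of antisense genes overlapping VIM (below) were counted. VIM with these genes stood at 112 ± 26.7 CPM in untreated and 107 ± 20.7 in treated WT cells, with 5158 merged exon bases for VIM. CDH2, with 4950 bases, stood at 92.3 ± 12.6 and 89.5 ± 7.15 CPM.

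CDH1, the adherens junction cadherin of epithelia, was at the detection limit in all 4 groups, with between 0 and 2 counts per library. No fold change is given for it. The libraries of untreated NS1 cells held 0 CDH1 counts, which at this depth could not be told apart from the few counts in WT cells.

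EPCAM, the other epithelial gene, was low and lower still in NS1 cells. Its normalised CPM was 4.5, 2.18 and 2.42 in untreated WT cells (3.03 ± 1.28), 3.85, 2.37 and 2.43 in treated WT cells (2.88 ± 0.834), 0.617, 0.872 and 1.35 in untreated NS1 cells (0.945 ± 0.37), and 0.832, 1.66 and 1.99 in treated NS1 cells (1.49 ± 0.598), for replicates 1, 2 and 3. Every NS1 library lay below every WT library. EPCAM fell in untreated NS1 cells by 1.76 on the log2 scale (SE 0.41, adjusted p = 0.0155), which is 3.39-fold lower than in WT. With inducer in both lines the difference was -1.02 (SE 0.39, adjusted p = 0.0663). Replicate 1 was the highest library in WT and the lowest in NS1: without replicate 1 in all groups the differences were -1.07 (adjusted p = 0.0326) and -0.39. Without replicate 2 or 3 in all groups the untreated difference was -1.90 (adjusted p = 0.139) or -2.19 (adjusted p = 0.0922). The untreated call was lost without WT replicate 1 (-1.32, adjusted p = 0.0679), NS1 replicate 1 (-1.51, adjusted p = 0.0665) or NS1 replicate 2 (-1.72, adjusted p = 0.0599). In NS1 cells the inducer gave 0.66 (SE 0.45, adjusted p = 0.46), with treated above untreated in 3 of 3 same-numbered pairs, by 0.36, 0.83 and 0.52.

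CDH2, which encodes N-cadherin, was higher in NS1 cells than in WT, and highest in NS1 cells with inducer. It was at 91.7, 105 and 80.03 CPM in untreated WT cells (92.3 ± 12.6), 81.4, 91.9 and 95.1 in treated WT cells (89.5 ± 7.15), 139.8, 131 and 144 in untreated NS1 cells (138 ± 6.92), and 179, 191 and 161 in treated NS1 cells (177 ± 15.2). The 2 NS1 groups overlapped neither with each other nor with WT. CDH2 rose between the untreated lines by 0.58 (SE 0.12, adjusted p = 0.00679, 1.5-fold) and between the treated lines by 0.98 (SE 0.12, adjusted p = 8.65e-05, 1.98-fold), and both calls held without any single library. Without replicate 2 or 3 in all groups the untreated difference was 0.73 (adjusted p = 0.0642) or 0.46 (adjusted p = 0.152). The treated minus untreated change in NS1 cells was 0.35 (SE 0.12, adjusted p = 0.092), with 3 of 3 same-numbered pairs higher (0.35, 0.54 and 0.15). Same-numbered libraries of a line deviated together, and with a block for replicate number within each line the change was 0.35 with an adjusted p of 0.0109. An antisense gene, ENSG00000227279, overlaps 2.75% of the CDH2 exon bases. It stood at 6.91 ± 0.627 CPM in untreated WT and 10 ± 1.11 in untreated NS1 cells.

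VIM, the vimentin gene, went the opposite way to CDH2 between the lines. Its level was 87.7, 56.4 and 64.3 CPM in untreated WT cells (69.5 ± 16.3), 79.9, 63.8 and 54 in treated WT cells (65.9 ± 13.1), 28.9, 29.1 and 33.3 in untreated NS1 cells (30.4 ± 2.48), and 23.5, 32.1 and 24.8 in treated NS1 cells (26.8 ± 4.64). The highest NS1 library was below the lowest WT library. VIM fell by 1.2 on the log2 scale between the untreated lines (SE 0.18, adjusted p = 0.00159, 2.29-fold lower) and by 1.30 between the treated lines (SE 0.19, adjusted p = 0.000268, 2.47-fold lower). Both calls held without any single library, and without replicate 3 in all groups the untreated difference was -1.32 (adjusted p = 0.0515). The inducer gave -0.18 in NS1 cells (SE 0.19, adjusted p = 0.654) and the treated and untreated libraries overlapped. A pair of genes on the opposite strand, VIM-AS1 and ENSG00000234961, overlap 24.4% of the VIM exon bases, and whether the authors counted by strand is not given in the sources used here, so reads of these genes may have been shared. VIM-AS1 fell by 1.07 (adjusted p = 0.0025) and ENSG00000234961 by 1.34 (adjusted p = 0.00297) between the untreated lines. VIM and both antisense genes together stood at 112 ± 26.7 CPM in untreated WT and 49 ± 4.51 in untreated NS1 cells.

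FN1, the fibronectin gene, was abundant everywhere and varied most among WT libraries. It stood at 3547, 8864 and 3622 CPM in untreated WT cells (5344 ± 3049), 2008, 6719 and 6006 in treated WT cells (4911 ± 2539), 3536, 4009 and 3805 in untreated NS1 cells (3783 ± 237), and 4665, 7207 and 5445 in treated NS1 cells (5772 ± 1303). Replicate 2 was the highest library in each group, and the lines overlapped. FN1 passed the test in no comparison of the main fit. The difference between the untreated lines was -0.50 (adjusted p = 0.458) and between the treated lines 0.23, which turned to -0.01 without replicate 1 in all groups. With no filter on low counts, edgeR called FN1 between the untreated lines (adjusted p = 0.0112) and with inducer in NS1 cells (adjusted p = 0.00166). That fit also called it for the interaction of genotype and inducer (adjusted p = 0.0283). In NS1 cells every treated library was above every untreated one, with a change of 0.61 (SE 0.40, adjusted p = 0.439) and pairs of 0.40, 0.85 and 0.52. With the block within each line that change was 0.59 with an adjusted p of 0.0371. WT pairs had mixed signs (-0.82, -0.40 and 0.73).

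SNAI1, which encodes the repressor Snail, had the largest changes among the transcription factors. Its level was 0.656, 0.601 and 1.06 CPM in untreated WT cells (0.773 ± 0.253), 0.617, 0.668 and 0.72 in treated WT cells (0.668 ± 0.0516), 1.67, 1.53 and 1.83 in untreated NS1 cells (1.67 ± 0.151), and 6.08, 3.14 and 2.99 in treated NS1 cells (4.07 ± 1.74). The 2 WT groups overlapped, untreated NS1 lay above them and treated NS1 above all others. SNAI1 rose with the inducer in NS1 cells by 1.31 (SE 0.30, adjusted p = 0.0213, 2.48-fold), and same-numbered pairs gave 1.79, 0.98 and 0.67. The size rests in part on replicate 1. Without treated NS1 replicate 1 the change was 0.87 (adjusted p = 0.0671). The call was also lost without any of the 3 untreated NS1 libraries, with 1.31, 1.25 and 1.37 (adjusted p = 0.0682, 0.086 and 0.0639), and without replicate 1 in all groups it was 0.88 (adjusted p = 0.0631). With the block within each line it was 1.32 (adjusted p = 0.000752).

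Between the lines SNAI1 was higher in NS1 cells under both treatments. With inducer it rose by 2.63 (SE 0.33, adjusted p = 0.000121, 6.2-fold), a call that held without any single library. Without inducer it rose by 1.15 (SE 0.35, adjusted p = 0.0496, 2.22-fold), just inside the threshold. DESeq2 put this at an adjusted p of 0.0748, and the call was lost in 5 of 6 fits that left out an untreated library (1.02 to 1.21, adjusted p up to 0.146), all but that without WT replicate 3. Without replicate 1 in all groups it was 1.03 (adjusted p = 0.067). The change of the inducer effect with genotype (NS1 minus WT) was 1.48 (SE 0.49, adjusted p = 0.213), and 1.49 (adjusted p = 0.0425) with the block within each line.

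SNAI2, which encodes Slug, stood at 21.1, 26.3 and 21.9 CPM in untreated WT cells (23.1 ± 2.77), 23.7, 23.9 and 23.8 in treated WT cells (23.8 ± 0.0751), 45.9, 28.7 and 31.6 in untreated NS1 cells (35.4 ± 9.17), and 42.4, 30.4 and 22.8 in treated NS1 cells (31.9 ± 9.88). Replicate 1 was the highest of both NS1 groups. The untreated lines did not overlap, with a difference of 0.62 (SE 0.21, adjusted p = 0.0728), while DESeq2 gave an adjusted p of 0.0456. The treated lines overlapped, with 0.43 (adjusted p = 0.148). The inducer change in NS1 cells was -0.15 and turned to 0.09 without untreated NS1 replicate 1.

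Neither ZEB gene passed the test in any comparison, and their groups overlapped throughout. ZEB1 ranged from 21.8 to 29.5 CPM in untreated WT cells (25.5 ± 3.85), from 20.1 to 30.4 in treated WT cells (26.2 ± 5.39), from 21 to 23.8 in untreated NS1 cells (22 ± 1.59) and from 16.7 to 22.2 in treated NS1 cells (20 ± 2.94). The difference between the treated lines was -0.38 (SE 0.17, adjusted p = 0.111), and -0.63 (adjusted p = 0.00466) without replicate 1, which was the lowest of the treated WT libraries. ZEB2 ranged from 11.8 to 18.8 CPM in untreated WT cells (14.7 ± 3.61), from 9.73 to 15.7 in treated WT cells (13.6 ± 3.39), from 14.2 to 17 in untreated NS1 cells (15.9 ± 1.53) and from 14.3 to 18.8 in treated NS1 cells (16 ± 2.4). Its changes were between -0.12 and 0.24 on the log2 scale. TWIST1 held 0 counts in all 12 libraries, which at the depth of each library allows at most 0.29 CPM.

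**Figure D2:**
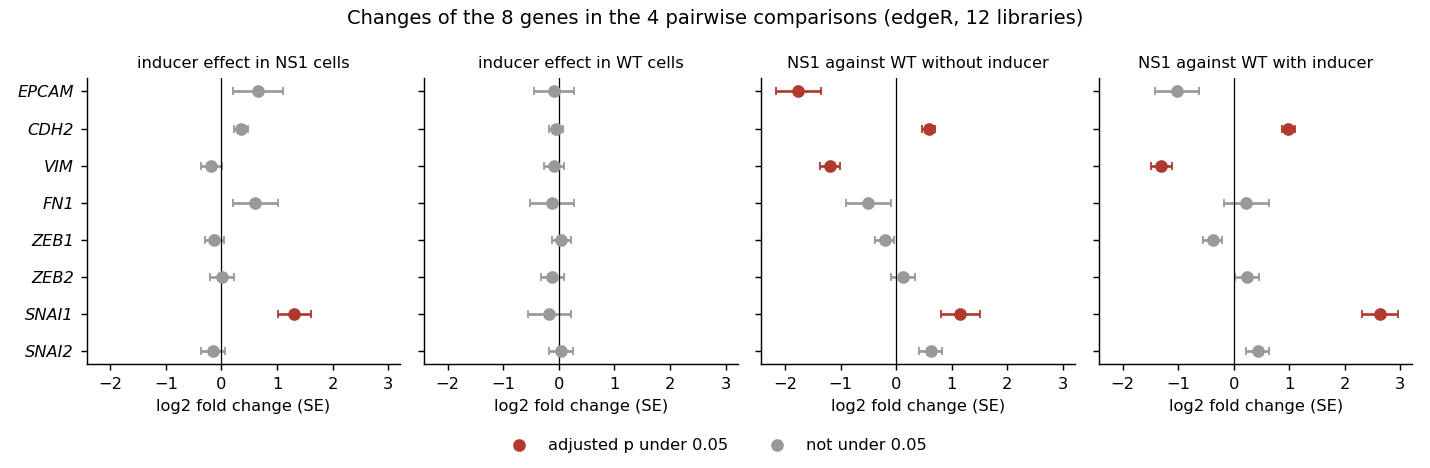
Log2 fold change with SE of the 8 tested genes in the 4 pairwise comparisons; red points had an adjusted p under 0.05 in edgeR's quasi-likelihood test. No gene was called in the WT inducer panel, and SNAI1, CDH2 and VIM were called in NS1 against WT with inducer.

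Counted by comparison, the inducer in NS1 cells called 1 of the 8 genes (SNAI1, higher), against a background of 6.15% of all genes tested. Of all genes, 2.76% were called higher and 3.39% lower. With the block within each line 3 were called (SNAI1, CDH2 and FN1, all higher), against 25.9%. Treated and untreated NS1 libraries did not overlap for those same 3 genes, against 27.2% of all genes. In WT cells the inducer called none of the 8, with changes between -0.17 and 0.04, against 0% of all genes, and no treated group stood clear of its untreated group, against 3.41% of all genes. EdgeR's main fit, which used no pairing, had 94 genes (0.529%) at an unadjusted p under 0.05, none of them among the 8. With the block within each line edgeR had 476 such genes and called 0. DESeq2 also called 0 genes.

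The untreated lines differed in 4 of the 8 genes (CDH2 and SNAI1 higher, EPCAM and VIM lower), against 12.5% of all genes (5.45% higher and 7.05% lower), and 5 did not overlap, against 31%. Treated lines differed in 3 (CDH2 and SNAI1 higher, VIM lower), against 28.2% (13.6% higher and 14.5% lower), and 4 did not overlap, against 43.4%. The interaction of genotype and inducer called none by edgeR (2 at an unadjusted p under 0.05, SNAI1 and CDH2), against 0.0225%, and 1 (SNAI1) with the block within each line, against 14%. These 8 genes are too few to call their share particular to them.

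To see how nearby genes differed between the lines, each gene was set beside the protein-coding genes tested within 10 Mb of its start. This reference was chosen after the data were seen. VIM lies where most neighbours were lower in NS1 cells: of 60 neighbours, 56 were lower between the untreated lines, with a median of -0.54, and VIM was 0.66 below that median. ZEB1, on the same arm, had 46 neighbours with a median of -0.45, of which 42 were lower, and its own value of -0.21 was higher than that median. CDH2 on chromosome 18 had 44 neighbours with a median of 0.34, of which 36 were higher, and stood only 0.25 above it, with 9 neighbours farther out. With inducer CDH2 stood 0.63 above a neighbour median of 0.35, and VIM 0.72 below one of -0.58.

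EPCAM and SNAI1 moved against their neighbours. EPCAM on chromosome 2 (start 47345158, end 47387601) had 65 neighbours with a median of 0.10 and was 1.86 below it, with 1 neighbour farther out. SNAI1 on chromosome 20 had 106 neighbours with a median of -0.16 and was 1.31 above it, with 0 farther out. The part of such neighbourhoods in the line differences of VIM, ZEB1 and CDH2 was not tested. For the inducer comparisons the neighbour medians of the 8 genes were between -0.07 and 0.08.

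**Figure D3:**
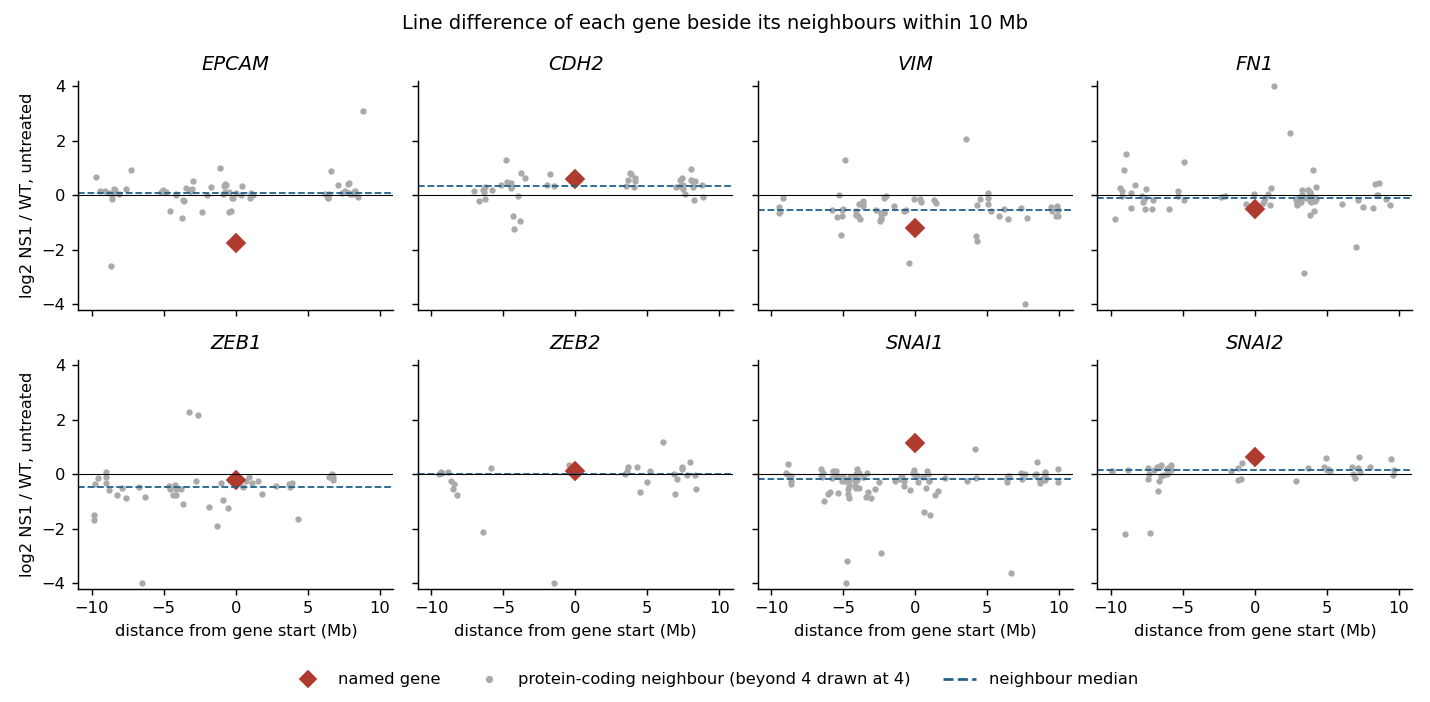
Log2 difference of untreated NS1 against untreated WT cells for each of the 8 genes (red diamond) and the protein-coding genes tested within 10 Mb (grey), by distance from the gene's start in Mb; the dashed line is the neighbour median. Neighbours of VIM and ZEB1 lie mostly below 0 and those of CDH2 mostly above, while EPCAM and SNAI1 lie away from theirs.

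The lists that follow extend the 10 genes to partners and targets in the same process, and their counts stand beside the background shares given above. In the TGF-beta pathway, which signals through SMAD proteins and induces SNAI1 in many cells, 17 of 19 listed genes were tested. Between the untreated lines 7 rose and 1 fell, with a median of 0.56 against 0 for all genes. TGFB2, a ligand of the pathway, was at 16.7, 11.6 and 6.86 CPM in untreated WT cells and 38.5, 58.4 and 65 in untreated NS1 cells, a rise of 2.17 (SE 0.35, adjusted p = 0.00197). SMAD7, an inhibitory SMAD induced by the pathway, rose from 5.5 ± 1.64 to 22.5 ± 1.89 CPM, by 2.00 (SE 0.21, adjusted p = 9.14e-05). LTBP2, which binds matrix microfibrils, rose by 0.89 and SMAD2, a receptor-activated SMAD, by 0.80. All 4 of these calls held without any single library. TGFB2 lost its call without replicate 2 (adjusted p = 0.0823) or replicate 3 (adjusted p = 0.0856) of all groups, and SMAD2 without replicate 3 (adjusted p = 0.0669).

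SMAD2, SMAD4 and SMAD7 lie on chromosome 18, where neighbours within 10 Mb had medians of 0.54, 0.54 and 0.55. SMAD7 stood 1.45 above that, SMAD2 0.26 and SMAD4 0.05. With inducer 11 rose and 1 fell (ENG, by 0.57), with a median of 0.63. TGFB2 then differed by 4.09 (SE 0.37, adjusted p = 1.12e-05) and ITGAV, an integrin chain that takes part in TGF-beta activation, by 1.6 (SE 0.24, adjusted p = 0.00037).

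Within NS1 cells the inducer raised TGFB2 to 106, 210 and 181 CPM, by 1.62 (SE 0.33, adjusted p = 0.012), a call held without any single compared library but not without replicate 2 (adjusted p = 0.258) or replicate 3 (adjusted p = 0.194) of all groups. LTBP1, a latent TGF-beta binding protein gene, fell by 0.72 (adjusted p = 0.0474) and lost its call without any single one of the 6 libraries. So 1 of 17 rose and 1 fell. With the block within each line 7 rose and 3 fell, in a fit that called 25.9% of all genes.

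Mesenchymal effectors, a list of cytoskeletal, matrix and surface genes, rose between the untreated lines where they passed the test, whereas VIM fell. Of 24 listed genes 21 were tested, and between the untreated lines 6 rose and none fell, with a median of 0.21. TGFBI, a matrix protein induced by TGF-beta, rose from 24.4 ± 5.75 to 116 ± 14.3 CPM, by 2.24 (SE 0.16, adjusted p = 5.63e-06). TAGLN, an actin-binding protein of smooth muscle, rose from 87.3 ± 25.2 to 306 ± 42.4 CPM, by 1.81 (SE 0.29, adjusted p = 0.00181). Tropomyosin gene TPM1 rose by 1.17 and fibrillin gene FBN1 by 1.02. The other 2 were LOXL2 and AXL, whose calls were lost without some libraries. Calls of TAGLN and FBN1 were lost without replicate 2 of all groups (adjusted p = 0.0856 and 0.058) and without replicate 3 (0.0515 and 0.0541). Without replicate 1 the list had 9 higher and 3 lower, in a fit that called 19.6% of all genes.

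With inducer 8 effectors rose and 2 fell between the lines, including TGFBI (2.72), TAGLN (2.60), the growth factor receptor PDGFRB (2.52) and myosin light chain gene MYL9 (1.87). The pair that fell was NT5E, the surface enzyme CD73 (by 1.59), and CD44, the hyaluronan receptor (by 0.82). In NS1 cells the inducer raised 3 and lowered 2: PDGFRB by 2.38 (SE 0.62, adjusted p = 0.0374), TGFBI by 0.60 and TPM1 by 0.57 rose, and NT5E fell from 58.4 ± 6.96 to 26.9 ± 2.13 CPM, by 1.12 (SE 0.23, adjusted p = 0.0143), and CD44 by 0.69. Each of the 3 that rose kept its call in 1 of 6 fits without a compared library, NT5E in 4 and CD44 in 5. The block within each line called 8 higher and 3 lower, beside 25.9% of all genes called. PDGFRB is also a fibroblast marker. The 6 fibroblast markers summed to 2.53 to 5.45 CPM in untreated and 8.42 to 21.8 CPM in treated NS1 cells, with DCN at 0 and LUM, COL1A2 and PDGFRA at no more than 3 counts.

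Some epithelial junction genes also rose in NS1 cells. Of 25 listed genes 17 were tested, and between the untreated lines 2 rose and 1 fell, with a median of 0.12. DSP, which encodes the desmosomal protein desmoplakin, rose from 23.2 ± 2.72 to 140 ± 27.2 CPM, by 2.59 (SE 0.19, adjusted p = 6.22e-06), and CDS1, a lipid enzyme used as an epithelial marker, by 1.01. JUP, plakoglobin, fell by 0.67 (adjusted p = 0.0467), a call lost without any single one of the 6 libraries. With inducer 6 rose and none fell, with a median of 0.53: they included DSP (by 3.11), claudin gene CLDN1 (by 1.38) and CDS1 (by 0.90). Without replicate 1 the list had 5 higher and 1 lower between the untreated lines and 10 higher and 1 lower between the treated lines, in fits that called 19.6% and 34% of all genes.

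In NS1 cells the inducer raised 3 junction genes and lowered none, with a median of 0.24. JUP went from 50.9, 80.9 and 79.8 to 128, 164 and 200 CPM, by 1.22 (SE 0.20, adjusted p = 0.00593). This call held without any single compared library, and that of F11R, a tight junction adhesion protein gene (0.58, adjusted p = 0.0294), in 1 of 6 such fits. The JUP call was lost without replicate 2 (adjusted p = 0.182) or replicate 3 (adjusted p = 0.194) of all groups, fits that called 0 genes. With the block within each line 7 rose and 1 fell, in a fit that called 25.9% of all genes.

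Among 10 epithelial regulators only 5 were tested: OVOL1 held 0 counts and GRHL2 at most 1 count in a library. ELF3, an epithelial ETS factor, rose with the inducer in NS1 cells from 0.247, 2.62 and 1.83 to 3.48, 17.6 and 19.5 CPM, by 3.14 (SE 0.72, adjusted p = 0.0223). Its call was kept in 2 of 6 fits without a compared library. None was called between the untreated lines, and between the treated lines ELF3 rose by 2.65 and KLF4 fell by 0.66, the latter call lost in 3 of 6 such fits.

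For other transcription factors tied to this transition, 8 of 13 were tested. FOXC1 and FOXC2 rose between the untreated lines, by 0.76 and 0.92, with a list median of 0.47. With inducer FOXQ1 (2.00), RUNX2 (1.75), FOXC1 (1.61) and FOXC2 (1.02) rose, and within NS1 cells FOXC1 rose by 0.77. The forkhead genes FOXC1, FOXC2 and FOXQ1 and the runt gene RUNX2 encode DNA-binding factors. Of these calls, FOXC2 in both comparisons and FOXC1 and RUNX2 with inducer held without any single compared library. Without replicate 2 of all groups FOXC2 lost its calls without and with inducer (adjusted p = 0.154 and 0.0697). RUNX2 with inducer lost its call there too (adjusted p = 0.0593).

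In the list of cadherin adhesion partners 10 of 12 were tested. VCL, the vinculin gene (0.84), CTNNB1, the beta-catenin gene (0.56), and CDH13 (0.54) rose between the untreated lines, 4 genes rose between the treated lines, and CTNND1, the p120-catenin gene, rose with inducer in NS1 cells (0.43, adjusted p = 0.0363). The calls of CDH13 and CTNND1 were kept in 1 and 0 of 6 fits without a compared library. In WT cells the inducer called no gene of any list, and neither did the interaction without a block.

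**Figure D4:**
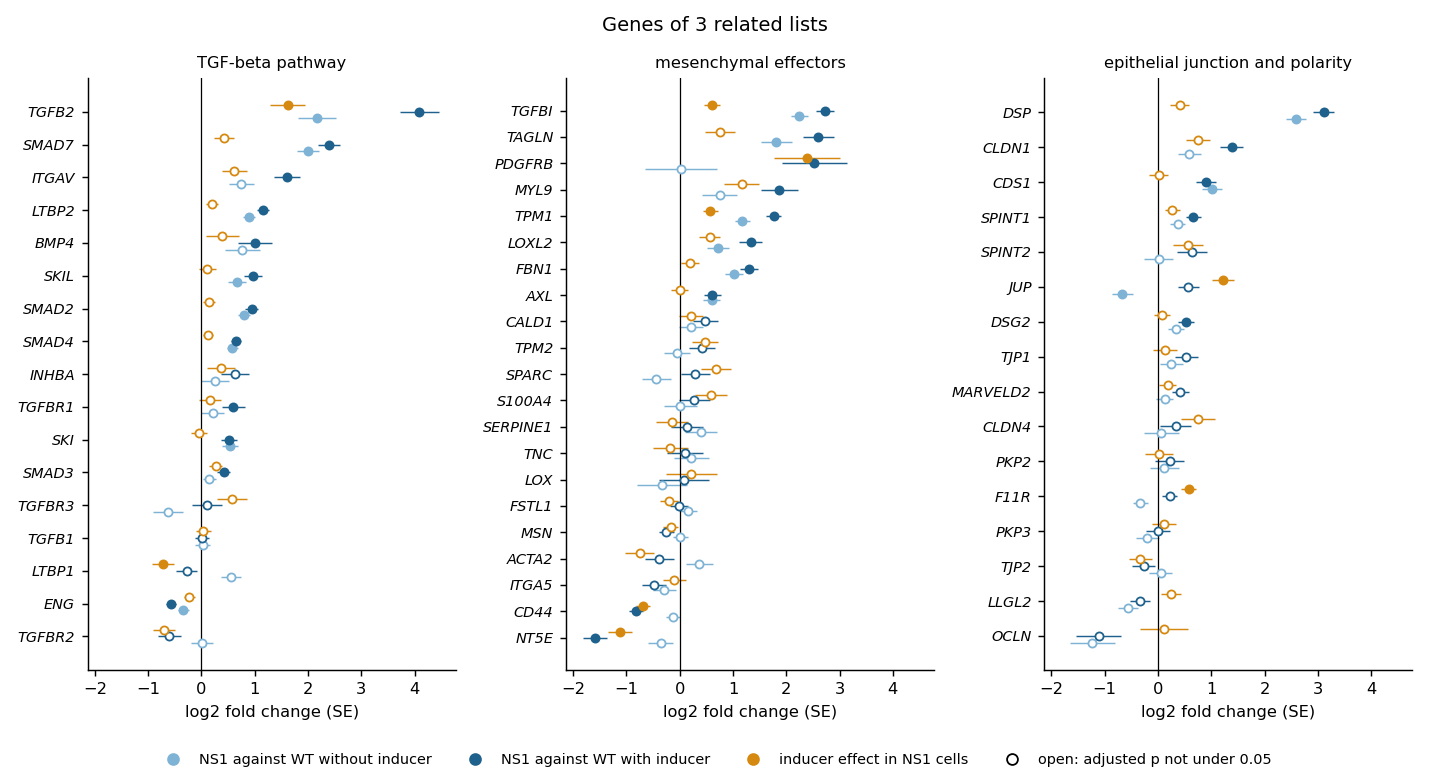
Log2 fold change with SE of tested genes (1 junction gene is not drawn) in the lists TGF-beta pathway, mesenchymal effectors, and epithelial junction and polarity; filled points had an adjusted p under 0.05 and open points did not. TGFB2 and TGFBI head their lists in NS1 against WT with inducer, while DSP heads the junction genes shown.

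As a description of pattern, the 3 genes most like each member were taken by Pearson's r of log2 CPM over the 12 libraries, among 16520 genes with a mean of at least 1 CPM. These libraries share groups and replicate numbers, and no function or control is read from the values. SNAI1 was most like NCOA4 (0.971), MAPRE3 (0.969) and PACS2 (0.965). CDH2 was most like FOXO3 (0.995), ENSG00000258425 (0.990) and JMY (0.985). For VIM they were its antisense genes ENSG00000234961 (0.996) and VIM-AS1 (0.994), then SHMT1 (0.985). For EPCAM they were PRKAR1B (0.965), CCL5 (0.962) and SYTL1 (0.962), and for FN1 KLF3 (0.949), UXS1 (0.940) and ENSG00000231329 (0.932). ZEB1 was most like ENSG00000286159 (0.958), STT3A (0.948) and TMEM87B (0.944), ZEB2 most like DYNC1LI2 (0.971), NAV2 (0.960) and CLIC4 (0.955), and SNAI2 most like PHAX (0.970), ETS2 (0.953) and FRRS1 (0.951).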

How the data were processed

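Poly(A) RNA libraries of 12 T24 samples were sequenced with a 75-cycle kit, per the labels' protocols. The deposited values are raw counts of reads for each gene, in whole numbers, as the authors made them. STAR 2.7.3a, featureCounts 1.6.4 and the build hg38 are named in the submitters' processing notes. The annotation release, the use of strand and of multiply mapped reads are not given in the sources used here. Of 60603 gene identifiers, 60261 matched a symbol. GENCODE 29 held 58483, of which 43869 had the same version, and a start and end are printed only for genes with the same version.

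The fit used R 4.3.3 with edgeR 4.0.16: filterByExpr, TMM, one mean per group over 12 libraries, glmQLFit and glmQLFTest (two-sided), Benjamini-Hochberg over 17775 genes, called under 0.05. The SE is the log2 fold change divided by the square root of F. The script was tested on simulated data. DESeq2 1.42.0 was an alternative, with other scalings, no filter, only the groups compared, replicate blocks and left-out libraries.

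Replicate numbers come from the sample titles. Deviations of same-numbered libraries correlated at 0.713, 0.386 and 0.384 within NS1 and 0.752, 0.385 and 0.256 within WT. The numbers were therefore taken to pair treated and untreated libraries in the pair differences and the block within each line. The main fit, which gave the calls, used no pairing. Between the lines the correlations were 0.00601 to 0.190, and the numbers were not taken to pair them. No libraries looked like one library deposited again (lowest chi-square 3.03 per degree of freedom).

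The 10 genes and all lists were chosen with earlier results of these data known. All 10 were named, with up to 4 called genes with the largest change per list and comparison, and 3 most alike genes for each gene of at least 1 CPM. A few others outside this rule were named after their values were seen: the miR-200 genes, antisense genes, LOXL2, AXL, SMAD4, OVOL1, GRHL2 and cell type markers. For 1 gene of the junction list, which is in the counts, no values are reported here.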

Additional observations from a re-analysis of the deposited data

Results flagged for a closer look

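The inducer effect on SNAI1 differed between the lines by a test of that difference when libraries were blocked by replicate number within each line: it was 1.49 larger on the log2 scale in NS1 than in WT cells (edgeR, adjusted p = 0.0425). Same-numbered pairs gave 1.79, 0.98 and 0.67 in NS1 and -0.07, 0.13 and -0.48 in WT cells. Without the block the difference was 1.48 (adjusted p = 0.213). The blocked fit called 14% of all genes for this difference. Of 5 other settings with all libraries, only that block called SNAI1 for it. Without the block, SNAI1 was called in 0 of 12 fits that left out 1 library and 0 of 3 that left out a replicate number.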

How the results depend on the processing

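For the inducer in NS1 cells, where 1 of the 8 tested genes was called, no filter on low counts called 2 and only the groups compared called 0, the replicate block across all groups 2 and the block within each line 3; fits without a replicate or a library called 0 to 1. Between the untreated lines such fits called 0 to 5, against 4. Between the treated lines no filter called 5, against 3. The interaction called 1 with no filter (FN1) and 1 with the block within each line (SNAI1), against 0. The block changed no other call of the 8 genes except SNAI2 between the untreated lines (0.60, adjusted p = 0.037). Library totals in place of TMM gave -0.05 for ZEB2 with inducer in NS1 cells, where TMM gave 0.01. The cause of these changes was not tested.

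Directions that turned without a replicate or a library were all of uncalled values. In WT cells with inducer the ranges were -0.37 to 0.36 for EPCAM, -0.18 to 0.06 for CDH2, -0.24 to 0.13 for VIM, -0.51 to 0.45 for FN1, -0.09 to 0.20 for ZEB1, -0.27 to 0.10 for ZEB2, -0.31 to 0.06 for SNAI1 and -0.02 to 0.15 for SNAI2. In NS1 cells they were -0.12 to 0.09 for ZEB2 and -0.42 to 0.09 for SNAI2. Between the untreated lines they were -0.72 to 0.08 for FN1 and -0.03 to 0.33 for ZEB2, and between the treated lines -0.14 to 0.52 for FN1. For the interaction they were -0.32 to 0.06 for VIM, -0.09 to 0.35 for ZEB2 and -0.46 to 0.04 for SNAI2.

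Over all genes the inducer in NS1 cells called 1093, and 1801 with no filter, 2421 and 4596 with the replicate block across groups and within lines, and 2021, 0 and 0 without replicates 1, 2 and 3 (2047 and 2048 at an unadjusted p under 0.05 for the latter pair). Between the untreated lines 2222 became 3908 with the block and 3466, 204 and 182 without replicates 1, 2 and 3. Between the treated lines 5007 became 1632 and 2127 without replicates 2 and 3. The interaction called 4, 683 with no filter, 634 and 2495 with the blocks, 387 with DESeq2 and 573 without replicate 1. CDH1 and TWIST1 could not be tested at this depth, and SNAI1 and EPCAM rest on few counts.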

Other observations

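Of the urothelial markers, GATA3, a transcription factor of luminal urothelium, rose with the inducer in NS1 cells from 34.7, 28.6 and 29.3 to 105, 60.3 and 69.8 CPM, by 1.34 (SE 0.32, adjusted p = 0.0281). The call was kept in 1 of 6 fits without a compared library. PECAM1, an adhesion protein of endothelium and leukocytes, rose there by 3.19 (SE 0.75, adjusted p = 0.0251), from 0.0617, 0.363 and 0.192 to 1.14, 1.83 and 2.82 CPM, a call also kept in 1 of 6 such fits, while CLDN5 and TEK held at most 3 counts in every library. Leukocyte markers summed to 8.33 to 16.3 CPM in untreated and 11.1 to 16.2 CPM in treated NS1 cells, with PTPRC and CD3E at no more than 1 count. Between the treated lines 3 of the 4 urothelial markers tested were called higher in NS1 cells, against 13.6% of all genes. These were GATA3 (by 1.38), FOXA1 (by 0.97) and PPARG (by 0.84), while UPK2 was not called (-0.02). The calls of GATA3 and FOXA1 held without any single compared library, and that of PPARG in 3 of 6 such fits. Those of GATA3 and FOXA1 were lost without replicate 2 of all groups (adjusted p = 0.063 and 0.169) and without replicate 3 (0.0889 and 0.0654).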
